A study of Oryza sativa with 18 samples.

Results

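NAC transcription factors were taken as every locus of the deposited rice table whose description contains "no apical meristem" or "NAC domain" in any letter case, after removal of 3 rows that name the nascent polypeptide-associated complex. The rule found 124 of 55986 loci, of which 114 carry the words "no apical meristem". RNA-seq libraries came from flag leaves of field-grown rice (Oryza sativa) during grain filling, and the study asks which genes take part in the regulation of flag leaf photosynthesis at this time. The 6 groups were the Ospho1;2-Ko1 mutant (Ko1), an OsPHO1;2 overexpression line (OE) and the wild type (WT), each at 15DAF and 5DAF, with 3 libraries per group and 18 in all. DAF is not spelled out in the labels, and neither the lesion in Ko1, the promoter of the transgene in OE, the cultivar nor the number of plants per library is given. Each altered genotype is a single line.

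NAC proteins are plant transcription factors named after NO APICAL MERISTEM, ATAF and CUP-SHAPED COTYLEDON. They bind DNA through a conserved N-terminal NAC domain and act through a variable C-terminal part, and some are held at a membrane until a signal releases them. In rice leaves the family is best known for members that promote or delay senescence, in which chlorophyll is degraded and nutrients are exported, and for members that raise tolerance to drought, salt and heat. Other members build secondary cell walls, shape organ boundaries under the control of the microRNA miR164, or act in the developing grain.

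Libraries held between 13223554 and 18264909 counts in genes. The labels do not state whether the 3 libraries of a group are separate plants, and p-values therefore describe the spread among these libraries alone, part of which can be technical. All 5 mesophyll markers were detected in every group, and their summed level ranged from 2713 to 9909 CPM, which are counts on a common library size. The sums of 5 developing grain markers were 83.1 to 114.7 CPM in Ko1 at 15DAF and 54.9 to 84.4 CPM in Ko1 at 5DAF, against 44.3 to 74.0 CPM in OE and WT at 15DAF and 21.5 to 49.5 CPM in OE and WT at 5DAF. AGPL2 had the highest mean of these 5 grain markers in every group. The secondary wall cellulose synthase genes stayed at or under 0.701 CPM in sum with CESA9 at 0. The meristem gene OSH1 was at 0 in all libraries. OsPHO1;2, the phosphate exporter gene named in the genotypes, read 6.07 to 6.14 CPM in Ko1, 4.75 to 29.5 CPM in OE and 1.78 to 3.25 CPM in WT at 15DAF. At 5DAF it read 1.10 to 3.38 CPM in Ko1, 5.91 to 9.74 CPM in OE and 1.73 to 3.53 CPM in WT, and edgeR called it in neither genotype against WT at either stage. Its transcript was thus not lower in Ko1, and as the lesion is not given this level does not check the mutant label. The library labelled WT 5DAF replicate 3 correlated more closely with Ko1 at 5DAF (r = 0.9604) than with the other WT libraries of that stage (r = 0.9363). It was not the only early library nearer to another group. WT 5DAF replicates 1 and 2 were closer to OE at 5DAF (r = 0.9685 and 0.9564) than to their own group (r = 0.9503 and 0.9468). Ko1 5DAF replicate 1 was closer to WT at 5DAF (r = 0.9564) than to Ko1 (r = 0.9521). For results that use WT at 5DAF, the calls that change without WT 5DAF replicate 3 are given.

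Of the 124 members, 91 had at least 1 count, 33 were at 0 in all 18 libraries, and 56 passed the filter on low counts and were tested. The 35 members with counts that did not pass held 1 to 108 counts over all libraries, with a median of 9. The members lay on 12 chromosomes, with 15 on chromosome 1. Between genes, levels are compared here in the deposited FPKM, which also divides by gene length. Mean FPKM over all libraries was 10 or more for 21 members, between 1 and 10 for 21 and under 1 for 49.

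The 6 most abundant members held 48.62% of the summed NAC signal in FPKM. LOC_Os05g35170 led with a mean of 95.5 FPKM and ranked 1 to 3 among members in each of the 6 groups. LOC_Os02g57650 followed with 85.00 FPKM at ranks 1 to 4, then OsNTL3, a membrane-anchored factor of heat and endoplasmic reticulum stress, with 65.4 FPKM at ranks 3 to 7. LOC_Os08g42400 averaged 61.3 FPKM, LOC_Os06g51070 averaged 57.6 FPKM and OsNAC6, a drought and salt tolerance factor, averaged 52.6 FPKM. The ranks of the 3 leading members overlapped, so their order was not the same in every group. The table gives the loci without a symbol no name beyond the NAC description, and they are called by their locus here.

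The listed secondary wall, grain and organ boundary factors had 0 to 99 counts each over all libraries. The 4 secondary wall factors were OsSWN1 with 22 counts, OsSWN2 with 48, NAC31 with 99 and OsSND2 with 0 over all libraries, and none was tested. Among the 6 grain factors, ONAC020, ONAC023, ONAC127 and ONAC129 were at 0, while ONAC025 had 2 counts and ONAC026 had 5. The organ boundary gene OsCUC1 was at 0, as was its relative OsCUC3, whose description the rule does not match. A total of 0 counts over all libraries allows a level of up to 0.0112 CPM, and within single libraries of 0.163 to 0.234 CPM, in terms of counting error only.

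**Figure D1:**
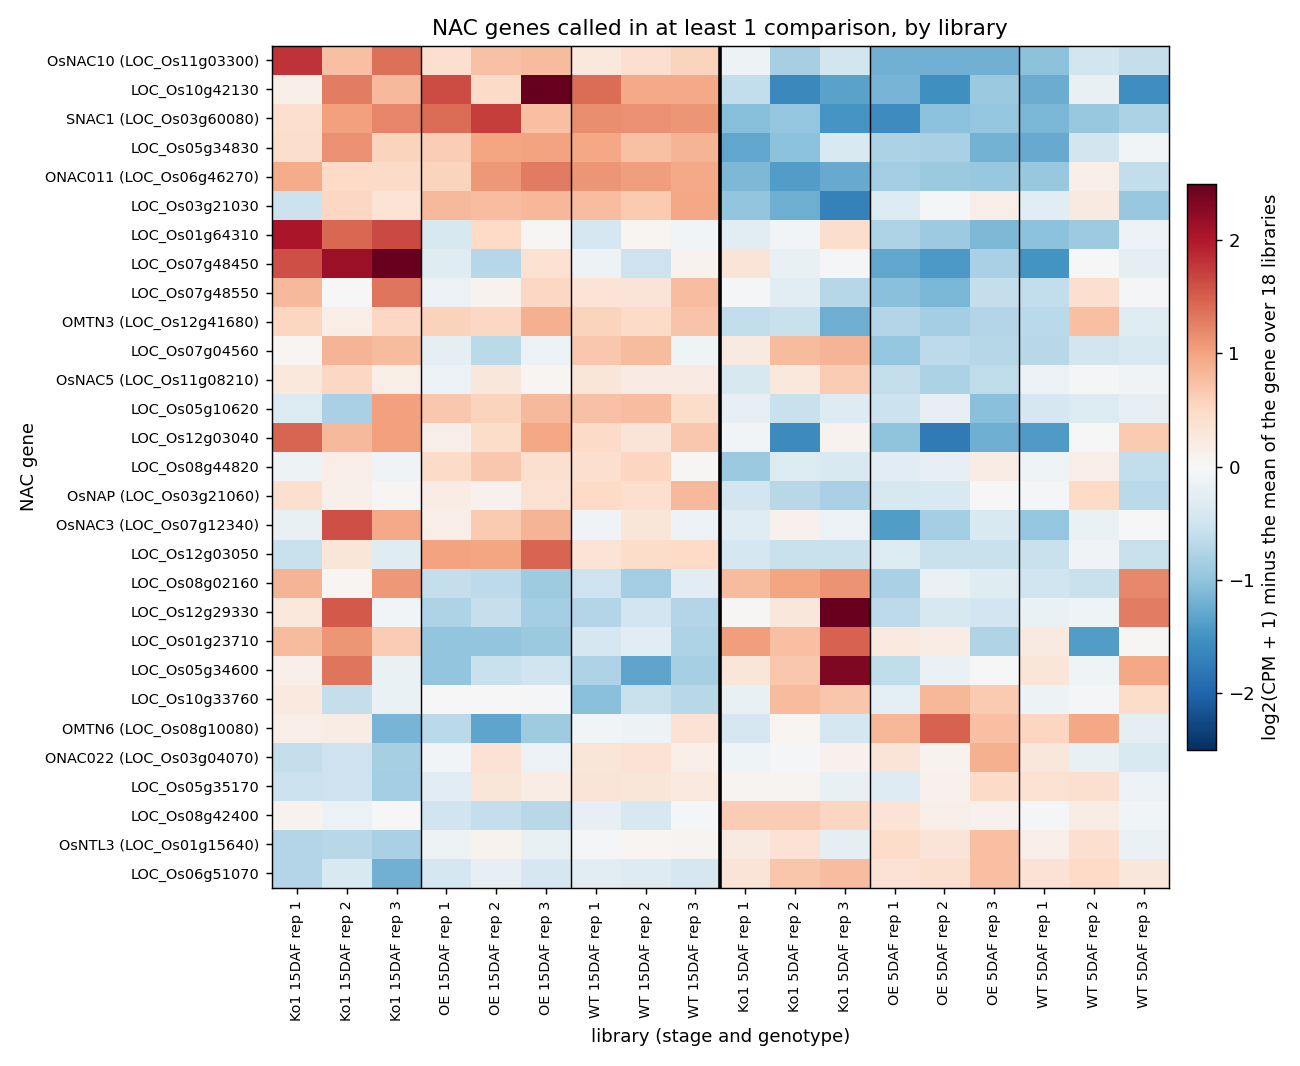
Levels of the 29 NAC members called in at least 1 comparison, as log2(CPM + 1) minus the gene's mean, in 18 libraries ordered by group (columns) with members as rows. SNAC1, ONAC011 and OsNAC10 are higher in the 15DAF columns, and the library labelled WT 5DAF replicate 3 shows the Ko1 pattern for LOC_Os08g02160.

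The stage comparisons ask how the family changed between early and later grain filling within each genotype. Between 15DAF and 5DAF, edgeR called 16 of 56 tested members in Ko1 (11 higher, 5 lower), where 20.1% of all 20437 tested genes were called (10.5% higher, 9.58% lower). In OE it called 21 members (16 higher, 5 lower), where 26.7% of all genes were called (13.1% higher, 13.6% lower). In WT it called 10 members (7 higher, 3 lower), where 16.7% of all genes were called (7.57% higher, 9.15% lower). Leaving out 1 of the early WT libraries gave 6 called members for replicate 1, 12 for replicate 2 and 8 for replicate 3. Without replicate 3 the WT calls of LOC_Os03g21030, LOC_Os10g33760 (log2 −2.03, edgeR adjusted p = 0.125) and LOC_Os05g34600 (log2 −1.32, edgeR adjusted p = 0.139) ended, and LOC_Os01g64310 was called higher. The median log2 change of the members was 0.07 in Ko1, 0.37 in OE and 0.15 in WT, beside 0.002, 0.02 and −0.02 for all genes. In total 27 members were called in at least 1 genotype, as were 35.7% of all genes, and 0 in opposite directions. Called in the same direction in all 3 genotypes were 7 members, where 9.58% of all genes were (4.71% higher, 4.86% lower), of which SNAC1, ONAC011, OsNAC10, LOC_Os10g42130, LOC_Os05g34830 and LOC_Os03g21030 rose and LOC_Os06g51070 fell. Of the 5 mesophyll markers, edgeR called 4 lower in OE, 1 lower in WT, and 1 higher and 1 lower in Ko1, with OE sums of 3429 to 4819 CPM at 15DAF, against 7741 to 9909 CPM at 5DAF; their part in the NAC changes was not tested.

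**Figure D2:**
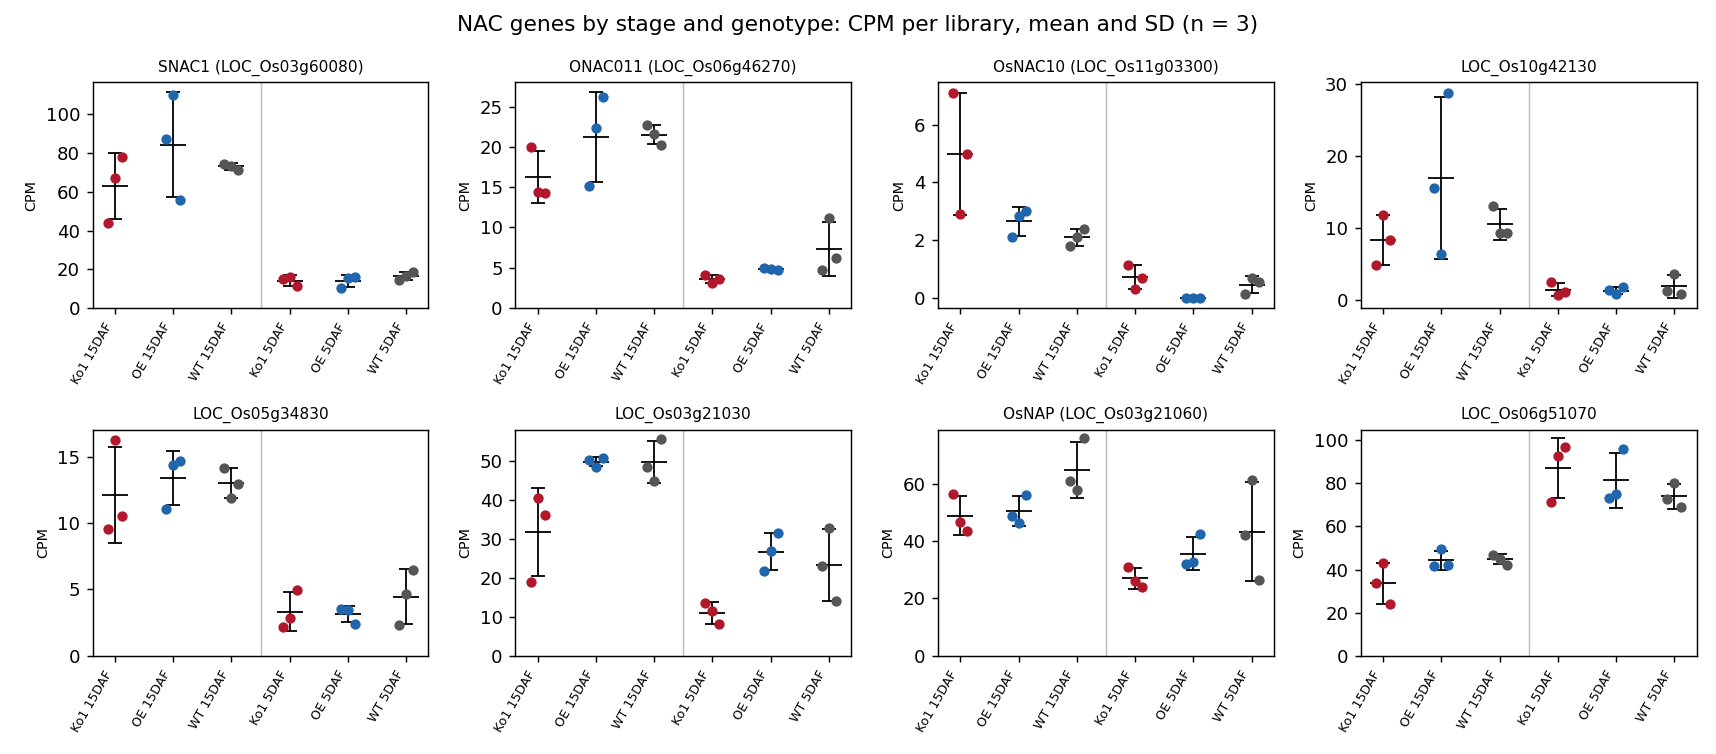
CPM of 8 NAC members in each library (points) with the group mean and SD (bars), 15DAF groups left of 5DAF groups and Ko1, OE and WT within each stage. The SNAC1 panel shows 44.1 to 109.9 CPM at 15DAF and 10.4 to 18.4 CPM at 5DAF, with no overlap.

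Of the 5 listed senescence factors 4 were tested, and edgeR called 2 higher in Ko1, 1 higher in OE and 1 higher in WT. Of all tested genes, 10.5% were called higher in Ko1, 13.1% in OE and 7.57% in WT. ONAC011 (chromosome 6, 28037569 to 28041909) promotes leaf senescence and heading. In Ko1 it read 19.9, 14.4 and 14.3 CPM at 15DAF, against 4.05, 3.15 and 3.58 CPM at 5DAF. In OE it read 15.2, 22.3 and 26.2 CPM at 15DAF, against 5.00, 4.78 and 4.67 CPM at 5DAF. In WT it read 22.7, 21.6 and 20.3 CPM at 15DAF, against 4.69, 11.1 and 6.16 CPM at 5DAF. Every 15DAF library lay above every 5DAF library, and WT 5DAF replicate 2 was the highest of the early ones. ONAC011 rose in Ko1 by log2 2.18 (SE 0.283, edgeR adjusted p = 3.73e-05), in OE by 2.14 (SE 0.28, edgeR adjusted p = 2.86e-05) and in WT by 1.56 (SE 0.272, edgeR adjusted p = 0.000861), and no single left-out library ended a call. As these are whole leaves, fewer cells of a type and less RNA per cell cannot be told apart for any member.

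OsNAP (chromosome 3, 11973970 to 11976426) directly activates chlorophyll breakdown and nutrient remobilisation genes in rice. It read 56.5, 46.7 and 43.6 CPM in Ko1 at 15DAF, against 31.1, 25.98 and 23.96 CPM in Ko1 at 5DAF. In OE its levels were 48.7, 46.3 and 56.3 CPM at 15DAF, against 32.00, 32.7 and 42.4 CPM at 5DAF, and in WT 60.99, 57.9 and 76.2 CPM at 15DAF, against 42.2, 61.2 and 26.6 CPM at 5DAF. The stages separated in Ko1 and in OE, while in WT the 5DAF library of replicate 2 reached the 15DAF range. OsNAP rose in Ko1 (log2 0.86, SE 0.23, edgeR adjusted p = 0.0132), and in OE and WT its log2 changes of 0.50 and 0.59 did not pass (edgeR adjusted p = 0.119 and 0.089). Without WT 5DAF replicate 3 its WT value was 0.31 (edgeR adjusted p = 0.339). The Ko1 call ended without Ko1 5DAF replicate 2, Ko1 5DAF replicate 3 or Ko1 15DAF replicate 1 (log2 0.74 to 0.97 over the 6 fits, edgeR adjusted p up to 0.0569). OsNAC2, which promotes senescence through abscisic acid and chlorophyll breakdown, had log2 changes of 1.63 in Ko1, 1.41 in OE and 0.33 in WT, none past the threshold. ONAC054, a membrane-tethered factor of abscisic acid-induced senescence, stayed between 0 and 1.65 CPM and was not called. ONAC106, which delays senescence, had 39 counts over all libraries and was not tested.

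LOC_Os03g21030, a member without a listed role, lies 34497 bp from OsNAP (chromosome 3, 11937436 to 11939473). In Ko1 it read 18.99, 40.6 and 36.1 CPM at 15DAF, against 13.7, 11.5 and 8.06 CPM at 5DAF. OE showed 50.4, 48.6 and 50.9 CPM at 15DAF, against 21.8, 26.98 and 31.5 CPM at 5DAF, and WT 48.7, 45.1 and 55.7 CPM at 15DAF, against 23.1, 32.8 and 14.2 CPM at 5DAF. The stages did not overlap in any genotype, and the lowest early values were those of Ko1 and of WT replicate 3. The locus rose in Ko1 (log2 1.52, SE 0.293, edgeR adjusted p = 0.00125), in OE (log2 0.90, SE 0.284, edgeR adjusted p = 0.0254) and in WT (log2 1.09, SE 0.285, edgeR adjusted p = 0.0136). Its Ko1 call held in all 6 leave-one-out fits. The OE call held only without OE 5DAF replicate 3 (log2 0.75 to 1.03, edgeR adjusted p up to 0.117), and the WT call ended without WT 5DAF replicate 3 or WT 15DAF replicate 3 (log2 0.81 to 1.42, edgeR adjusted p up to 0.0615). Across the 18 libraries its log2 CPM and that of OsNAP had r = 0.836, given as a description of libraries that share stage and genotype.

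Chlorophyll breakdown and senescence-associated genes known to follow these factors were taken as a list of 10, of which 9 were tested. In Ko1 edgeR called 4 of them higher and 2 lower at 15DAF than at 5DAF. In OE it called 3 higher and 3 lower, and in WT 3 higher and 2 lower. The shares of all tested genes were 10.5% higher and 9.58% lower in Ko1. They were 13.1% and 13.6% in OE, and 7.57% and 9.15% in WT. SGR (STAY-GREEN), which starts chlorophyll breakdown, read 25.2, 38.4 and 61.3 CPM in Ko1 at 15DAF, against 3.45, 3.21 and 1.24 CPM in Ko1 at 5DAF. It rose by log2 3.98 in Ko1 (edgeR adjusted p = 4.09e-05), 5.87 in OE (edgeR adjusted p = 2.08e-06) and 3.87 in WT (edgeR adjusted p = 7.81e-05). PAO, the oxygenase that opens the ring of a chlorophyll breakdown product, rose by log2 1.64 in Ko1, 1.27 in OE and 1.18 in WT, and NYC3, a chlorophyll-degrading hydrolase, rose by 1.36 in Ko1, 0.87 in OE and 0.97 in WT. RCCR1, a reductase of chlorophyll catabolites, rose in Ko1 (log2 1.15, edgeR adjusted p = 0.0224), and lost the call without Ko1 replicates 2 or 3 at 5DAF or 1 or 3 at 15DAF (edgeR adjusted p up to 0.082). NOL, a chlorophyll b reductase, fell in OE (log2 −1.13, edgeR adjusted p = 0.00952). The senescence-associated genes Osl57 and Osl2 fell in all 3 genotypes, Osl57 at log2 −0.83 in Ko1, −1.12 in OE and −0.69 in WT. Single libraries ended the calls of NYC3 in OE (without OE 5DAF replicate 1, edgeR adjusted p = 0.0558), of Osl2 in WT (without WT 5DAF replicate 2, edgeR adjusted p = 0.0698) and of Osl57 in WT (without replicate 1 or 2 of either stage, edgeR adjusted p up to 0.0937). Without WT 5DAF replicate 3, Osh36, a senescence-associated gene, was also called higher in WT (log2 3.99, edgeR adjusted p = 0.0134). The list was drawn up with earlier results of these libraries known, so its direction is not independent evidence.

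Stress factors of the SNAC type were all tested, and edgeR called 2 of 8 higher and 1 lower in Ko1, 4 higher in OE and 2 higher in WT. Among all tested genes 10.5% were higher and 9.58% lower in Ko1, 13.1% higher in OE and 7.57% higher in WT. SNAC1 (chromosome 3, 34166099 to 34167546) promotes stomatal closure and drought tolerance. In Ko1 it read 44.1, 67.1 and 77.9 CPM at 15DAF, against 15.1, 16.2 and 11.1 CPM at 5DAF. OE had 87.4, 109.9 and 55.97 CPM at 15DAF, against 10.4, 15.5 and 16.2 CPM at 5DAF, and WT had 74.5, 73.5 and 71.3 CPM at 15DAF, against 14.2, 16.5 and 18.4 CPM at 5DAF. All late libraries lay above all early ones, and the late spread was widest in OE and narrowest in WT. SNAC1 rose in Ko1 (log2 2.16, SE 0.254, edgeR adjusted p = 1.42e-05), in OE (log2 2.59, SE 0.257, edgeR adjusted p = 2.16e-06) and in WT (log2 2.16, SE 0.253, edgeR adjusted p = 2.83e-05), and each call held in all 6 leave-one-out fits.

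OsNAC10 (chromosome 11, 1233928 to 1236052) raises drought tolerance when overexpressed in roots. It read 7.11, 2.89 and 4.97 CPM in Ko1 at 15DAF, against 1.13, 0.309 and 0.689 CPM in Ko1 at 5DAF. OE libraries held 2.09, 2.82 and 3.02 CPM at 15DAF and 0 counts in all 3 libraries at 5DAF, and WT libraries held 1.78, 2.11 and 2.39 CPM at 15DAF, against 0.138, 0.69 and 0.53 CPM at 5DAF. Late levels were low but lay above every early library. OsNAC10 rose in Ko1 (log2 2.82, SE 0.553, edgeR adjusted p = 0.00191), in OE at least 34.54-fold against a floor of 3 counts over the 5DAF group (edgeR adjusted p = 3.06e-05), and in WT (log2 2.20, SE 0.572, edgeR adjusted p = 0.0156). The WT call ended without WT 5DAF replicate 1 (edgeR adjusted p = 0.057). OsNAC10 and LOC_Os12g03040 sit in the duplicated ends of chromosomes 11 and 12, as do ONAC045 and LOC_Os12g03050, so reads may be divided between these copies.

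OsNAC5, a drought tolerance factor, rose in OE, where it read 29.4, 39.98 and 34.1 CPM at 15DAF, against 21.3, 18.5 and 20.6 CPM at 5DAF (log2 0.77, SE 0.203, edgeR adjusted p = 0.00875). Without OE 15DAF replicate 2 that call ended (edgeR adjusted p = 0.0573). OsNAC3, a factor of salt and abscisic acid responses, also rose in OE, with 6.91, 10.1 and 11.6 CPM at 15DAF, against 1.67, 2.84 and 4.44 CPM at 5DAF (log2 1.67, SE 0.449, edgeR adjusted p = 0.0103), and its call ended without OE 5DAF replicate 1 (edgeR adjusted p = 0.0595). In both genes the OE stages did not overlap. OsNAC6 changed by log2 0.50 in Ko1, 0.60 in OE and 0.89 in WT without passing (edgeR adjusted p = 0.277, 0.152 and 0.0519). Its WT libraries read 187, 187 and 209.9 CPM at 15DAF, against 64.3, 151 and 99.9 CPM at 5DAF, which did not overlap. ONAC022, a drought and salt tolerance factor, was the member called lower in Ko1, with 25.5, 26.7 and 21.4 CPM at 15DAF, against 35.9, 37.4 and 41.9 CPM at 5DAF (log2 −0.65, SE 0.212, edgeR adjusted p = 0.0393), a call that held only without Ko1 15DAF replicate 2 (log2 −0.71 to −0.56, edgeR adjusted p up to 0.156). OsNAC4, a factor of hypersensitive cell death, and ONAC045, a drought and salt tolerance factor, were called in no comparison.

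**Figure D3:**
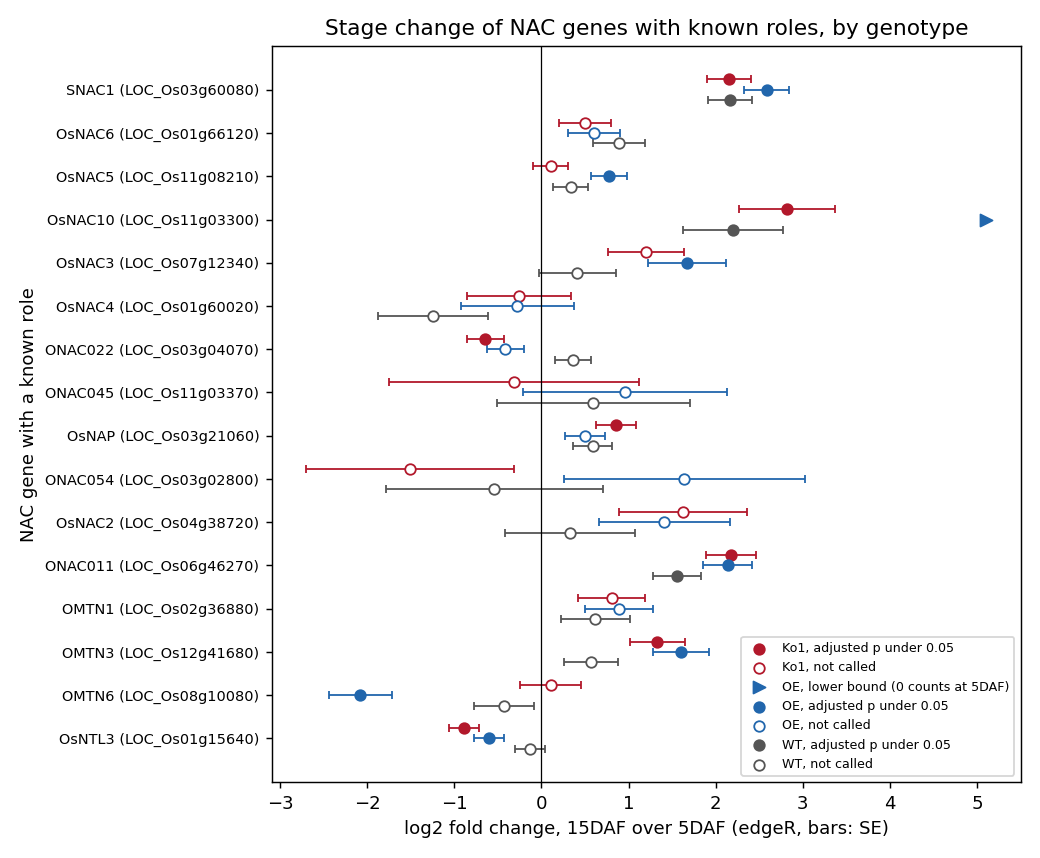
Log2 fold change at 15DAF over 5DAF with SE for the 16 tested NAC members with a listed role, in Ko1, OE and WT; filled points passed edgeR at an adjusted p under 0.05, and the triangle is the lower bound of OsNAC10 in OE. ONAC011 and SNAC1 are filled to the right of 0 in all 3 genotypes, and OsNTL3 is filled to the left in Ko1 and OE.

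Targets of miR164, a microRNA that cleaves a subset of NAC messages, numbered 5 tested of 6 listed, ONAC011 and OsNAC2 included. OMTN3 rose in Ko1 with 13.8, 10.4 and 13.6 CPM at 15DAF, against 5.70, 5.92 and 3.37 CPM at 5DAF (log2 1.33, SE 0.321, edgeR adjusted p = 0.00671). It also rose in OE, with 14.2, 13.5 and 17.8 CPM at 15DAF, against 5.16, 4.71 and 5.14 CPM at 5DAF (log2 1.60, SE 0.323, edgeR adjusted p = 0.0013). In WT it read 13.97, 13.3 and 15.7 CPM at 15DAF, against 5.45, 16.2 and 7.29 CPM at 5DAF, where replicate 2 at 5DAF was as high as the late libraries and the change did not pass (log2 0.57, SE 0.311, edgeR adjusted p = 0.238). OMTN6 went the other way in OE and fell to 15.7, 9.63 and 13.3 CPM at 15DAF, against 46.4, 73.5 and 43.6 CPM at 5DAF (log2 −2.08, SE 0.362, edgeR adjusted p = 0.00038). Both genes kept these calls in all leave-one-out fits. OMTN1 had log2 changes of 0.81 in Ko1, 0.89 in OE and 0.62 in WT and was not called.

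Among the abundant members, OsNTL3 (chromosome 1, 8792646 to 8797363) read 76.7, 78.97 and 72.5 CPM in Ko1 at 15DAF, against 149.7, 164 and 109 CPM in Ko1 at 5DAF, and fell, at log2 −0.89 (SE 0.174, edgeR adjusted p = 0.00139). In OE it read 117, 135 and 112 CPM at 15DAF, against 177, 160.0 and 217 CPM at 5DAF, and fell, at log2 −0.60 (SE 0.173, edgeR adjusted p = 0.0154). In WT it read 125, 131 and 134 CPM at 15DAF, against 143, 170.4 and 113 CPM at 5DAF, which overlapped and gave log2 −0.13 (edgeR adjusted p = 0.682), and without WT 5DAF replicate 3 −0.29 (edgeR adjusted p = 0.317). LOC_Os08g42400 fell in Ko1 (log2 −0.62, SE 0.139, edgeR adjusted p = 0.00402) and in OE (log2 −0.80, SE 0.14, edgeR adjusted p = 0.000404), with 301 ± 24.4 CPM at 15DAF against 463 ± 17.2 CPM at 5DAF in Ko1 and 202 ± 14.5 CPM at 15DAF against 351 ± 32.4 CPM at 5DAF in OE (SD, n = 3 each). LOC_Os06g51070 (chromosome 6, 30893477 to 30894523) was the member that fell in all 3 genotypes. It read 33.6, 43.2 and 24.1 CPM in Ko1 at 15DAF, against 71.4, 92.9 and 97.1 CPM in Ko1 at 5DAF, and in WT 46.96, 45.1 and 42.2 CPM at 15DAF, against 72.9, 80.4 and 69.00 CPM at 5DAF. Its late libraries all lay below its early ones, with log2 changes of −1.37 (SE 0.185, edgeR adjusted p = 5.21e-05) in Ko1, −0.88 (SE 0.183, edgeR adjusted p = 0.00174) in OE and −0.73 (SE 0.183, edgeR adjusted p = 0.011) in WT. The call of OsNTL3 in OE ended without OE 5DAF replicate 3 or OE 15DAF replicate 3 (edgeR adjusted p up to 0.08), and the others named here held. LOC_Os05g35170 fell in Ko1 (log2 −0.62, SE 0.209, edgeR adjusted p = 0.0457), a call that held only without Ko1 5DAF replicate 3 (log2 −0.71 to −0.53, edgeR adjusted p up to 0.17). The call also ended with no filter on low counts (log2 −0.60, edgeR adjusted p = 0.0706) and in a fit of the compared groups alone (log2 −0.63, edgeR adjusted p = 0.062). LOC_Os02g57650 was called in no comparison.

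Most of the other members called between stages have no listed role. LOC_Os10g42130 read 8.35 ± 3.47 CPM in Ko1, 16.9 ± 11.2 CPM in OE and 10.5 ± 2.18 CPM in WT at 15DAF, against 1.44 ± 0.916, 1.33 ± 0.486 and 1.91 ± 1.55 CPM in the same genotypes at 5DAF (SD, n = 3 each). It rose by log2 2.55 (SE 0.604, edgeR adjusted p = 0.00609) in Ko1, 3.67 (SE 0.624, edgeR adjusted p = 0.000311) in OE and 2.48 (SE 0.592, edgeR adjusted p = 0.00824) in WT. LOC_Os05g34830 averaged 12.1 ± 3.64 CPM in Ko1, 13.4 ± 2.04 CPM in OE and 13.01 ± 1.14 CPM in WT at 15DAF, against 3.32 ± 1.45, 3.11 ± 0.605 and 4.46 ± 2.08 CPM at 5DAF (SD, n = 3 each), and rose in all 3 (log2 1.86, 2.10 and 1.54). Both loci kept every call in the leave-one-out fits, and no late library of either lay within the early range of its genotype. In OE, LOC_Os12g03050 had 111 counts at 15DAF and 2 at 5DAF, a ratio of 45.28 with a counting interval of 12.24 to 378.6, and it was picked out after its values were seen. LOC_Os12g03040, the copy of OsNAC10, rose in OE by log2 3.37 (SE 0.948, edgeR adjusted p = 0.0138), a call that ended without OE 5DAF replicate 2 (edgeR adjusted p = 0.0528).

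LOC_Os07g48450 and LOC_Os01g64310 rose in Ko1 and in OE. LOC_Os07g48450 read 28.4, 41.4 and 56.7 CPM in Ko1 at 15DAF, against 11.03, 7.47 and 8.26 CPM in Ko1 at 5DAF (log2 2.24, SE 0.404, edgeR adjusted p = 0.000724), and in OE it rose by log2 1.23 (SE 0.42, edgeR adjusted p = 0.0382). LOC_Os01g64310 read 10.9, 6.74 and 8.01 CPM in Ko1 at 15DAF, against 1.35, 1.73 and 2.89 CPM in Ko1 at 5DAF (log2 2.10, SE 0.482, edgeR adjusted p = 0.00485), and in OE it rose by log2 2.01 (SE 0.541, edgeR adjusted p = 0.0104). In WT the stage change of LOC_Os01g64310 was log2 0.92 (SE 0.512, edgeR adjusted p = 0.253), and without WT 5DAF replicate 3 it was called at 1.73 (edgeR adjusted p = 0.0391). That of LOC_Os07g48450 in WT was 0.31 (SE 0.403, edgeR adjusted p = 0.669). In Ko1 the stages of both loci stood clear of each other and no left-out library ended the call. In OE the call of LOC_Os01g64310 ended without OE 15DAF replicate 2 (edgeR adjusted p = 0.0597), and that of LOC_Os07g48450 without OE 5DAF replicates 1 or 2 or OE 15DAF replicates 1 or 3 (edgeR adjusted p up to 0.212). LOC_Os07g48550 rose in Ko1 (log2 1.15, SE 0.312, edgeR adjusted p = 0.0144) and in OE (log2 1.11, SE 0.315, edgeR adjusted p = 0.0142), and its calls ended without Ko1 5DAF replicate 3 or Ko1 15DAF replicate 3 in Ko1 (log2 0.79 to 1.43), and without OE 5DAF replicates 1 or 2 or OE 15DAF replicate 3 in OE (log2 0.90 to 1.30). The other 6 stage calls of members without a listed role each ended in most leave-one-out fits. LOC_Os05g10620 rose in OE (log2 2.06, SE 0.642, edgeR adjusted p = 0.0238), as did LOC_Os08g44820 (log2 0.62, SE 0.21, edgeR adjusted p = 0.0381), and LOC_Os07g04560 rose in WT (log2 1.77, SE 0.512, edgeR adjusted p = 0.0244). LOC_Os01g23710 fell in OE (log2 −1.12, SE 0.404, edgeR adjusted p = 0.049), and LOC_Os05g34600 (log2 −1.69, SE 0.538, edgeR adjusted p = 0.0394) and LOC_Os10g33760 (log2 −2.40, SE 0.785, edgeR adjusted p = 0.0442) fell in WT. The highest edgeR adjusted p in those fits was 0.0956 for LOC_Os05g10620, 0.158 for LOC_Os08g44820, 0.114 for LOC_Os07g04560, 0.148 for LOC_Os01g23710, 0.151 for LOC_Os05g34600 and 0.129 for LOC_Os10g33760.

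In Ko1 against WT, which asks what the mutant changed, edgeR called 8 members at 15DAF (5 higher, 3 lower), where 11.0% of all genes were called (6.53% higher, 4.43% lower). The summed level of the 124 members was 2079 to 2176 CPM in Ko1 libraries, against 2525 to 2574 CPM in WT libraries. The difference between the summed means was −423.9 CPM, of which LOC_Os05g35170 gave −285.1 CPM and the 3 members called lower −362.2 CPM together. The median log2 difference of the tested members was −0.01, beside 0.01 for all genes. The summed developing grain markers were also above WT in each Ko1 library at 15DAF, and edgeR called 1 of these 5 higher. Most of the sum was AGPL2, with a mean of 72.4 CPM in Ko1 against 41.9 CPM in WT. Means of BEIIb and GluA2 were also higher in Ko1. Those of GBSSI (1.45 against 2.21 CPM) and RPBF (2.13 against 2.66 CPM) were lower. The part of these markers in the NAC differences was not tested.

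**Figure D4:**
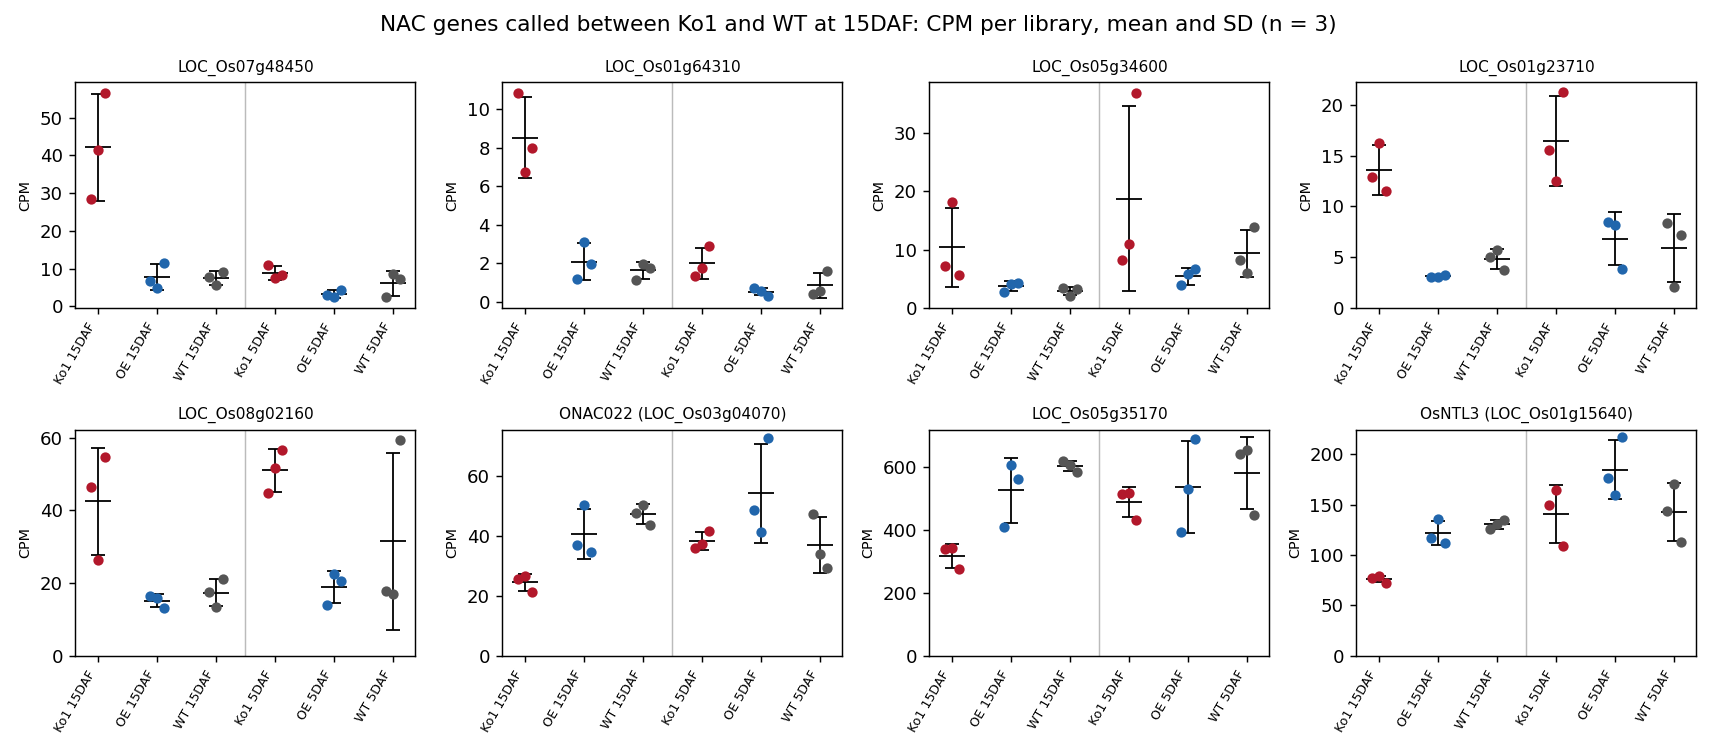
CPM of the 8 NAC members called between Ko1 and WT at 15DAF, in each library (points) with group mean and SD (bars), 15DAF groups left of 5DAF groups. In the LOC_Os07g48450 panel the Ko1 libraries at 15DAF sit between 28.4 and 56.7 CPM, above every WT and OE library.

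Called lower in Ko1 were the most abundant member and 2 with listed roles. LOC_Os05g35170 (chromosome 5, 20880322 to 20884443) read 338, 343 and 275 CPM in Ko1, against 619, 606 and 586 CPM in WT, and fell, at log2 −0.92 (SE 0.21, edgeR adjusted p = 0.0117). OsNTL3 read 76.7, 78.97 and 72.5 CPM in Ko1, against 125, 131 and 134 CPM in WT, and fell, at log2 −0.78 (SE 0.174, edgeR adjusted p = 0.0103). ONAC022 (chromosome 3, 1862352 to 1864245) read 25.5, 26.7 and 21.4 CPM in Ko1, against 47.9, 50.5 and 43.9 CPM in WT, and fell, at log2 −0.95 (SE 0.212, edgeR adjusted p = 0.0103). In each of the 3 genes all Ko1 libraries lay below all WT libraries. OsNTL3 kept its call in all leave-one-out fits, LOC_Os05g35170 lost it without WT 15DAF replicate 1 or Ko1 15DAF replicate 3 (edgeR adjusted p up to 0.054), and ONAC022 lost it without WT 15DAF replicate 2 or Ko1 15DAF replicate 3 (edgeR adjusted p up to 0.051).

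The 5 members called higher in Ko1 at 15DAF have no listed role. LOC_Os07g48450 (chromosome 7, 28985797 to 28988032) read 28.4, 41.4 and 56.7 CPM in Ko1, against 7.77, 5.64 and 9.11 CPM in WT, and rose by log2 2.49 (SE 0.408, edgeR adjusted p = 0.00134). LOC_Os01g64310 (chromosome 1, 37334220 to 37336229) read 10.9, 6.74 and 8.01 CPM in Ko1, against 1.14, 1.97 and 1.74 CPM in WT, and rose by log2 2.39 (SE 0.488, edgeR adjusted p = 0.00634). Both stood clear of WT in every library and kept their calls in all leave-one-out fits. LOC_Os05g34600 read 7.23, 18.2 and 5.70 CPM in Ko1, against 3.42, 2.04 and 3.25 CPM in WT (log2 1.83, SE 0.539, edgeR adjusted p = 0.0384). LOC_Os01g23710 read 12.95, 16.3 and 11.5 CPM in Ko1, against 5.06, 5.71 and 3.74 CPM in WT (log2 1.49, SE 0.395, edgeR adjusted p = 0.024). LOC_Os08g02160 read 46.5, 26.2 and 54.6 CPM in Ko1, against 17.5, 13.5 and 20.99 CPM in WT (log2 1.29, SE 0.384, edgeR adjusted p = 0.0397). These 3 also did not overlap, but leaving out any 1 WT 15DAF library ended each call, as did Ko1 15DAF replicate 2 for the first 2 and Ko1 15DAF replicates 1 or 3 for LOC_Os08g02160. Over those fits the log2 values ran 1.15 to 2.14 for LOC_Os05g34600, 1.34 to 1.64 for LOC_Os01g23710 and 1.08 to 1.54 for LOC_Os08g02160. The number of members called fell to 4 without WT 15DAF replicate 1 or 2 and to 5 without WT 15DAF replicate 3, while all genes called numbered 815, 814 and 915 without WT 15DAF replicates 1, 2 and 3, against 2240 in the fit of all libraries.

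Senescence factors did not pass between Ko1 and WT at 15DAF. OsNAP read 56.5, 46.7 and 43.6 CPM in Ko1, against 60.99, 57.9 and 76.2 CPM in WT (log2 −0.41, SE 0.226, edgeR adjusted p = 0.242), with every Ko1 library below every WT library. ONAC011 read 19.9, 14.4 and 14.3 CPM in Ko1, against 22.7, 21.6 and 20.3 CPM in WT (log2 −0.41, SE 0.262, edgeR adjusted p = 0.32), again without overlap. The chlorophyll breakdown and senescence list had 1 of 9 tested genes called, beside 11.0% of all genes. This was Osl57, which fell, at log2 −0.64 (edgeR adjusted p = 0.0497). It lost the call in each of 6 fits that left out a compared library (log2 −0.72 to −0.56). Without WT 5DAF replicate 3, which is in neither compared group, edgeR called Osl57 (log2 −0.63, edgeR adjusted p = 0.0165), RCCR1 (log2 −0.87, edgeR adjusted p = 0.0126) and NYC3 (log2 −0.66, edgeR adjusted p = 0.0401) lower, and 9 members, LOC_Os06g01230 added (log2 0.83, edgeR adjusted p = 0.0402). The stress factor OsNAC4 had a log2 difference of 1.75 (SE 0.635, edgeR adjusted p = 0.081).

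At 5DAF edgeR called 0 members between Ko1 and WT, where 0.0147% of all genes were called, with 12 members at an unadjusted p under 0.05. DESeq2 called 5 members and 3.72% of all genes. Leaving out WT 5DAF replicate 1 or 2, or any single Ko1 5DAF library, gave 0 called members. Without WT 5DAF replicate 3 edgeR called 9 members, where 13.4% of all genes were called. That library was singled out for its likeness to Ko1, so leaving it out favours a larger difference and its calls are not independent evidence. In that fit LOC_Os08g02160 rose by log2 1.54 (edgeR adjusted p = 0.00325), LOC_Os01g64310 by 2.05 (edgeR adjusted p = 0.0218) and LOC_Os01g23710 by 1.62 (edgeR adjusted p = 0.0289), with LOC_Os07g04560 at 2.14 (edgeR adjusted p = 0.0304) and LOC_Os08g42400 at 0.54 (edgeR adjusted p = 0.0318). It also called OsNAP lower at log2 −0.94 (edgeR adjusted p = 0.00684), ONAC011 at −1.13 (edgeR adjusted p = 0.0243), OMTN3 at −1.11 (edgeR adjusted p = 0.0415) and LOC_Os03g21030 at −1.34 (edgeR adjusted p = 0.00684). Of the chlorophyll breakdown and senescence list it called RCCR1 (log2 −1.78, edgeR adjusted p = 0.000426), PAO (log2 −1.09, edgeR adjusted p = 0.00279), NYC3 (log2 −1.25, edgeR adjusted p = 0.0032), Osl57 (log2 −0.71, edgeR adjusted p = 0.0168) and NYC1 (log2 −1.07, edgeR adjusted p = 0.0175) lower and Osh36 higher (log2 5.03, edgeR adjusted p = 0.00572). Among the library values, LOC_Os08g02160 read 44.8, 51.6 and 56.6 CPM in Ko1, against 17.8, 17.01 and 59.5 CPM in WT. The library labelled WT replicate 3 was as high as the Ko1 libraries, and both other WT libraries were lower. OsNAP read 31.1, 25.98 and 23.96 CPM in Ko1, against 42.2, 61.2 and 26.6 CPM in WT, where replicate 3 again lay within the Ko1 range. Mesophyll marker sums at 5DAF were 3068 to 5419 CPM in Ko1, against 3704 to 8606 CPM in WT, and developing grain marker sums were 54.9 to 84.4 CPM in Ko1, against 24.3 to 49.5 CPM in WT; their part in these differences was not tested. Whether that library is mislabelled was not tested.

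Between OE and WT, which asks what the overexpression line changed, edgeR called 0 members at 5DAF, where 0.0391% of all genes were called, and 0 at 15DAF, where 0.0245% were called. Unadjusted p was under 0.05 for 9 members at 5DAF and 5 at 15DAF, and DESeq2 called 1 member at 5DAF (0.351% of all genes) and 0 at 15DAF (0.127% of all genes). Without WT 5DAF replicate 3 edgeR again called 0 members at 5DAF, and without WT 5DAF replicate 1 it called 1. The median log2 difference of the members at 5DAF was −0.30, beside −0.005 for all genes, and at 15DAF 0.03, beside 0.002. OMTN6 had the smallest unadjusted p of the members at 15DAF, with 15.7, 9.63 and 13.3 CPM in OE, against 24.4, 23.5 and 33.3 CPM in WT, which did not overlap (log2 −1.07, SE 0.355, edgeR adjusted p = 1). At 5DAF OsNAC10 was at 0 in all OE libraries, against 0.138, 0.69 and 0.53 CPM in WT.

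Ko1 against OE sets the line labelled mutant against the line labelled overexpression, and shares its libraries with the comparisons above. At 5DAF edgeR called 11 members (9 higher, 2 lower), where 16.3% of all genes were called (8.41% higher, 7.93% lower). Of the 8 stress factors 2 were higher in Ko1. OsNAC5 read 24.5, 39.7 and 51.4 CPM in Ko1, against 21.3, 18.5 and 20.6 CPM in OE (log2 0.94, SE 0.203, edgeR adjusted p = 0.0136). OsNAC10 had 30 counts in Ko1 and 0 in OE, at least 8.939-fold higher (edgeR adjusted p = 0.0106). Each Ko1 library of both genes lay above each OE library. The other members called higher had no listed role and included LOC_Os07g04560, with 1.80, 3.15 and 3.37 CPM in Ko1, against 0.227, 0.523 and 0.467 CPM in OE (log2 2.75, SE 0.545, edgeR adjusted p = 0.0115). LOC_Os12g29330 was called at log2 2.18 (SE 0.626, edgeR adjusted p = 0.0295), with 8.33, 10.1 and 56.1 CPM in Ko1, and 1 library set apart from the others; without that library, replicate 3, it was 0.75. Higher as well were LOC_Os01g64310 (log2 1.96), LOC_Os05g34600 (1.79), LOC_Os07g48450 (1.44), LOC_Os08g02160 (1.42) and LOC_Os01g23710 (1.26), at edgeR adjusted p = 0.0248 to 0.038. LOC_Os07g48450 lost this call in all 6 leave-one-out fits (edgeR adjusted p = 0.0501 to 0.0945). LOC_Os01g23710 kept it in 1 of 6 (edgeR adjusted p up to 0.17), and the remaining loci of this group kept it in 2 of 6 each. LOC_Os05g34600 too had a high replicate 3, with 8.26, 10.98 and 36.9 CPM in Ko1, against 3.87, 5.76 and 6.62 CPM in OE, and without that library its log2 value was 0.83 (edgeR adjusted p = 0.298).

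Lower in Ko1 than in OE at 5DAF were OMTN6 and LOC_Os03g21030. OMTN6 read 18.99, 26.6 and 18.7 CPM in Ko1, against 46.4, 73.5 and 43.6 CPM in OE (log2 −1.34, SE 0.353, edgeR adjusted p = 0.0221). LOC_Os03g21030 read 13.7, 11.5 and 8.06 CPM in Ko1, against 21.8, 26.98 and 31.5 CPM in OE (log2 −1.27, SE 0.293, edgeR adjusted p = 0.0155). Neither overlapped between the genotypes. Of the chlorophyll breakdown and senescence list 5 of 9 tested genes were lower, beside 7.93% of all genes. They were RCCR1 at log2 −1.47, the chlorophyll b reductase NYC1 at −1.13, NYC3 at −1.10, Osl57 at −0.74 and PAO at −0.71. The leave-one-out counts ranged from 0 to 14 members and from 0 to 6 list genes. Without Ko1 5DAF replicate 3 edgeR called 0 members, 0 list genes and 46 genes in all, against 3340 genes with every library. Without OE 5DAF replicate 3 it called 3 members, 0 list genes and 475 genes in all, and without OE 5DAF replicate 1 or 2 it called 5 members, with 1076 and 1809 genes in all. List genes called numbered 2 without Ko1 5DAF replicate 2 or OE 5DAF replicate 1. Mesophyll marker sums at 5DAF were 3068 to 5419 CPM in Ko1, against 7741 to 9909 CPM in OE, and developing grain marker sums were 54.9 to 84.4 CPM in Ko1, against 21.5 to 43.6 CPM in OE; their part in these differences was not tested.

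At 15DAF edgeR called 8 members between Ko1 and OE (5 higher, 3 lower), where 13.3% of all genes were called (7.69% higher, 5.64% lower). LOC_Os07g48450 read 28.4, 41.4 and 56.7 CPM in Ko1, against 6.73, 4.88 and 11.5 CPM in OE (log2 2.45, SE 0.407, edgeR adjusted p = 0.0012). LOC_Os01g23710 read 12.95, 16.3 and 11.5 CPM in Ko1, against 3.10, 3.08 and 3.27 CPM in OE (log2 2.11, SE 0.406, edgeR adjusted p = 0.0034). Neither gene overlapped, and both calls held in all leave-one-out fits. LOC_Os01g64310 was higher by log2 2.04 (SE 0.479, edgeR adjusted p = 0.0112), LOC_Os08g02160 by 1.49 (SE 0.386, edgeR adjusted p = 0.0187) and LOC_Os08g42400 by 0.58 (SE 0.139, edgeR adjusted p = 0.0132). Lower were OsNTL3 (log2 −0.68, SE 0.173, edgeR adjusted p = 0.0174), ONAC022 (log2 −0.73, SE 0.212, edgeR adjusted p = 0.0311) and LOC_Os05g35170 (log2 −0.72, SE 0.21, edgeR adjusted p = 0.0314). Those 3 calls ended without Ko1 15DAF replicate 1 or 3 and without OE 15DAF replicate 2, and without OE 15DAF replicate 2 edgeR called 4 members in all and 0 lower. ONAC022 also lost its call without OE 15DAF replicate 1 (edgeR adjusted p up to 0.171 over its fits). LOC_Os05g35170 also lost it without OE 15DAF replicate 3 (edgeR adjusted p up to 0.143). LOC_Os01g64310 lost its call without OE 15DAF replicate 1, LOC_Os08g42400 without OE 15DAF replicate 3, and LOC_Os08g02160 without any 1 OE 15DAF library or Ko1 15DAF replicate 3 (log2 1.28 to 1.74). The count was 5 without OE 15DAF replicate 1 or 3, and 13 without Ko1 15DAF replicate 2. Developing grain marker sums were 83.1 to 114.7 CPM in Ko1, against 61.2 to 69.7 CPM in OE, and their part was not tested.

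A difference between genotypes in the size of the stage change was tested by interaction, and edgeR called 0 members for Ko1 minus WT, where 0.553% of all genes were called, and 0 for OE minus WT, where 0 genes were called. Unadjusted p was under 0.05 for 6 members in each, and DESeq2 called 0 in each (1.30% and 0.0414% of all genes). Without WT 5DAF replicate 1 edgeR called 1 member for Ko1 minus WT, and without any other library 0. LOC_Os07g48450 led for Ko1, with a stage change of log2 2.24 in Ko1 and 0.31 in WT and a difference of 1.93 (SE 0.565, edgeR adjusted p = 0.201). Calls of OsNAP, OMTN3 and OsNTL3 in some genotypes only are thus not shown to differ between genotypes.

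The remaining 27 of 56 tested members were called in no comparison, and 29 in at least 1, where 48.7% of all genes were. Their mean levels ran from 0.175 to 85.0 FPKM, 8 of them averaged 10 FPKM or more, and 6 have a listed role, namely OsNAC6, OMTN1, OsNAC2, ONAC054, ONAC045 and OsNAC4. Summed over all 124 members the level was 2079 to 2176 CPM in Ko1, 2229 to 2629 CPM in OE and 2525 to 2574 CPM in WT at 15DAF, against 2200 to 2356 CPM in Ko1, 2122 to 2572 CPM in OE and 2036 to 2624 CPM in WT at 5DAF. In CPM the family's total thus overlapped between stages in OE and WT, and lay lower at 15DAF than at 5DAF in each Ko1 library. Summed FPKM did not overlap in WT (944 to 976 at 15DAF, 709 to 870 at 5DAF) or OE (861 to 994 at 15DAF, 713 to 800 at 5DAF). It overlapped in Ko1, with 840 to 854 at 15DAF against 821 to 895 at 5DAF. The stage pattern of the total therefore depended on the unit. CPM uses library sizes scaled by TMM factors, while FPKM uses plain library totals and gene length. These factors were 0.866 to 0.929 in OE at 5DAF, against 1.0283 to 1.0801 in OE at 15DAF. In WT they were 0.8996, 0.9151 and 1.0691 at 5DAF, against 1.0101 to 1.0308 at 15DAF. The parts of the factors and of gene length in this difference were not tested. Among members that neighbour each other within 50 kb there were 18 pairs, of which 2 had both members tested and 4 had both at 0.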

How the data were processed

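RNA was extracted with a plant kit and sequenced from standard libraries, per the labels' protocols. The deposited table holds raw counts per gene and library and FPKM values, per the file headers, and the authors' FPKM scale counts by library total and gene length. For the members, count and FPKM imply gene lengths that differ between libraries by a ratio of at most 1.00079. Bowtie 0.12.2 and mm8, a mouse build, are named in the submitters' processing notes, although the loci are rice. Rice build, annotation, counter and strand use: not given in the sources used here. Coordinates are therefore printed as in the table, and antisense or overlapping genes cannot be told apart.

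Counts were scaled by TMM, filtered with filterByExpr over the 6 groups (20437 genes) and fitted with edgeR 4.0.16 quasi-likelihood over all 18 libraries with 6 group means, in R 4.3.3. Contrasts were 2-sided with Benjamini-Hochberg adjustment over all tested genes and an adjusted p under 0.05 as the threshold. SE is the absolute log2 fold change divided by the root of F. CPM uses the scaled library size. The procedure was tested on simulated data for Ko1 against WT at 15DAF, with changes planted in genes with ample counts. It called 46 of 100 planted changes of log2 1 and 91 of 100 of log2 2. Of 20143 genes without a planted change it called 3. Members that were not called can therefore hold changes of about log2 1. Alternatives were DESeq2 1.42.0, RLE scaling, no filter, a replicate block, the compared groups alone and leaving out each library.

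Members and gene lists were chosen with earlier results of these data known. Named genes are every listed member, up to 6 called members per direction and comparison with at least 1 CPM, and the 6 most abundant. LOC_Os12g03050, LOC_Os08g44820, LOC_Os05g10620 and LOC_Os07g48550 were named after their values were seen.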

Additional observations from a re-analysis of the deposited data

How the results depend on the processing

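Among the values of called genes, no direction reversed under any alternative. Values that were not called could change sign. Between OE and WT at 5DAF, LOC_Os08g02160 went from log2 −0.73 to 0.13 without WT 5DAF replicate 3. Counts of called members stayed within 1.5 times of the reported ones under RLE scaling, no filter, the compared groups alone and the replicate block, and under DESeq2 except between Ko1 and WT at 5DAF (5 called against 0) and between OE and WT at 5DAF (1 against 0). Leaving out each library gave 0 to 9 called members for Ko1 against WT at 5DAF, 4 to 9 at 15DAF, 0 to 1 for OE against WT at 5DAF, 0 to 14 for Ko1 against OE at 5DAF (0 to 6 senescence list genes), 4 to 13 at 15DAF, 6 to 12 for the stages in WT and 0 to 1 for the Ko1 interaction. Of 664 leave-one-out values of called genes 497 kept their call. These values include fits without WT 5DAF replicate 3 for comparisons that do not use that library, in which every call held. The share kept was thus smaller among fits that left out a compared library. The main fit did not pair libraries by replicate number. Deviations of equally numbered libraries from their group means correlated at −0.205 to 0.251 (median 0.0221), with 5 of 45 pairs over 0.1. Those of unequally numbered libraries correlated at −0.278 to 0.262 (median −0.0229), with 7 of 90 pairs over 0.1. With the replicate number as a block, 8 became 9 members for Ko1 against WT at 15DAF, 11 became 14 for Ko1 against OE at 5DAF, 8 became 9 for Ko1 against OE at 15DAF, and 16, 21 and 10 became 15, 20 and 12 for the stages in Ko1, OE and WT, while Ko1 and OE against WT otherwise stayed at 0. The block ended the stage calls of ONAC022 (log2 −0.65, edgeR adjusted p = 0.0526) and LOC_Os05g35170 (log2 −0.62, edgeR adjusted p = 0.0502) in Ko1 and of LOC_Os01g23710 in OE (log2 −1.11, edgeR adjusted p = 0.0634). A fit of the compared groups alone ended the stage calls of LOC_Os07g48550 in Ko1 and of LOC_Os07g04560, LOC_Os10g33760 and Osl57 in WT, and those of LOC_Os05g34600, LOC_Os12g29330 and PAO for Ko1 against OE at 5DAF (edgeR adjusted p = 0.0526 to 0.0901). With no filter on low counts LOC_Os01g23710 in OE (edgeR adjusted p = 0.051) and Osl57 for Ko1 against WT at 15DAF (edgeR adjusted p = 0.0596) lost their calls. The causes were not tested. At these depths 35 members had too few counts to be tested.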
